A study of Drosophila melanogaster with 6 samples.

Results

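Antimicrobial peptides are short secreted peptides with which Drosophila melanogaster kills bacteria and fungi. In systemic infection they are made mainly by the fat body, the insect counterpart of liver and adipose tissue, and they are also made locally in epithelia such as gut and trachea. Their genes are switched on by NF-kappaB factors downstream of the Toll and Imd pathways. In textbook assays, Drs (drosomycin, an antifungal peptide) is the usual readout of Toll, and the diptericins, attacins, drosocin and cecropins are read as Imd targets. Mtk (metchnikowin) responds to both pathways.

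A list of 10 genes was examined by name: Mtk, Listericin, Drs, DptA, DptB, AttA, AttC, Dro, Def and CecA1. Of these, 5 had a probe set that the platform annotation pairs with that gene alone, out of 11982 genes so represented. They were Mtk, Listericin, Drs, DptB and Def, each read by 1 probe set without an _s, _x or _a suffix, which would mark possible matches to several transcripts. DptA, AttA, AttC, Dro and CecA1 had no probe set that the annotation pairs with their gene ID. They were not analysed here. Of the 5 measured genes, Drs lies on arm 3L and Mtk, Listericin, DptB and Def lie on arm 2R.

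RNA of whole larvae of instar 1 was hybridised to 6 Affymetrix arrays, 3 for wild type and 3 for the Pof mutant label. Pof is the gene of a protein known to bind along chromosome 4. The series title names the allele D119, the labels give no stock, treatment or infection for any group, and each array is described as a biological replicate made from 200 larvae of mixed sex and with all tissues mixed. Because the Pof probe set read 8.41 ± 0.05 under the mutant label and 6.80 ± 0.05 in wild type (log2, SD, n = 3), the groups are called mutant-labelled and wild type, and every direction rests on the labels. The comparison asks which transcripts differ with the mutation. All levels below are log2 expression values, differences are mutant-labelled minus wild type, and a gene was called when its limma p, adjusted by Benjamini-Hochberg over all 18769 probe sets, was under 0.05.

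Listericin rose 2.39-fold on the mutant-labelled arrays and was the only gene called among the 5. Mtk gave the largest difference of the 5, a 5.86-fold higher mean, and DptB a 1.34-fold higher mean, and neither passed. The values of Drs differed several-fold between arrays of the same group, and its group difference was small beside that spread. Def, a defensin, lay at nearly the same mean in both groups. Among all 11982 genes 2.65% were called higher and 4.09% were called in either direction, against 1 and 1 of these 5.

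**Figure D1:**
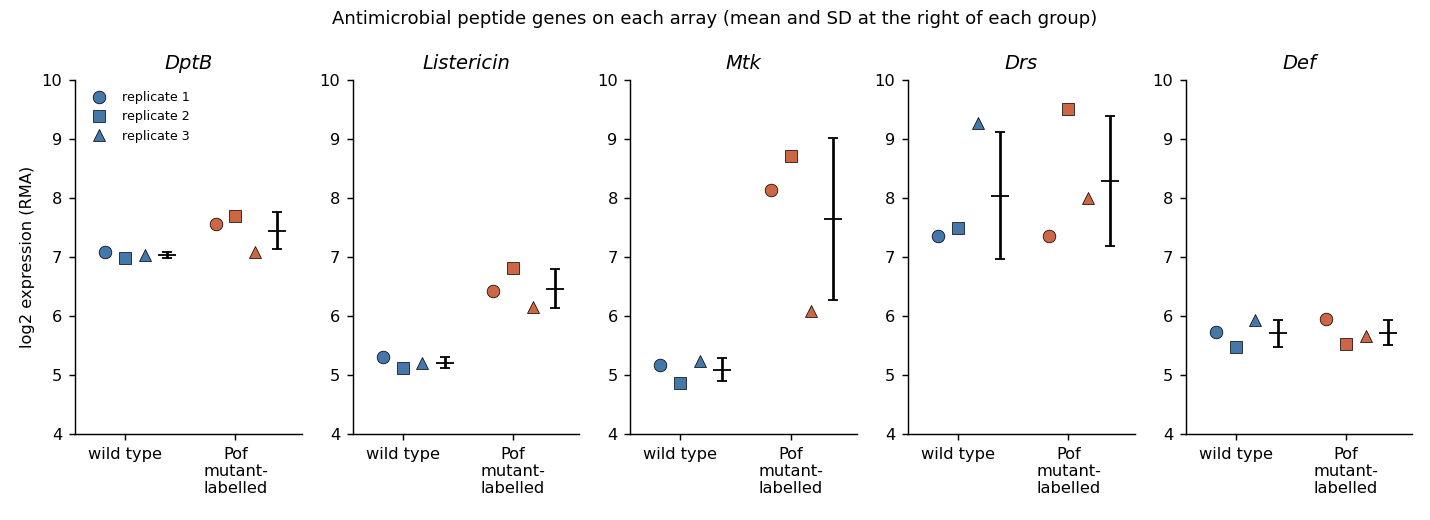
Log2 expression of the 5 measured antimicrobial peptide genes (y axis) on the 3 wild type and 3 mutant-labelled arrays (x axis). Symbols mark the replicate, and the bar at the right of each group is the mean with its SD. Listericin and Mtk lie higher on every mutant-labelled array than on any wild type array, while Drs is high on 1 array of each group.

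DptB encodes a diptericin, a glycine-rich peptide active against Gram-negative bacteria, and is the only diptericin on the list that could be measured. It lay beside DptA in the gene order of the reference. Its values were 7.08, 6.97 and 7.03 on wild type replicates 1 to 3 and 7.55, 7.69 and 7.09 on mutant-labelled replicates 1 to 3. The groups did not overlap, but mutant-labelled replicate 3 lay only 0.0091 above the highest wild type array. The difference was 0.42 (SE 0.15, 95% interval 0.061 to 0.77), and DptB did not pass (limma adjusted p = 0.275). Without mutant-labelled replicate 3 the difference was 0.60 and passed (limma adjusted p = 0.0337).

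Listericin encodes a peptide reported in flies to act against Listeria and other bacteria, with expression that depends on the receptor PGRP-LE and on JAK/STAT signalling. It read 5.30, 5.11 and 5.199 on the wild type arrays and 6.41, 6.81 and 6.16 on the mutant-labelled arrays. Every mutant-labelled array lay at least 0.86 above every wild type array, and the 3 stood at 2.31-fold, 3.04-fold and 1.94-fold of the wild type mean. The group means were 5.203 ± 0.09 and 6.46 ± 0.33 (SD, n = 3), a difference of 1.26 (SE 0.16, 95% interval 0.88 to 1.63, limma adjusted p = 7.97e-03). The fold of 2.39 had a 95% interval from 1.84 to 3.09. The wild type level lay near the lower quartile of the arrays (5.11 to 5.24), where folds are compressed by background, so the size of the rise is uncertain.

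Mtk encodes a proline-rich peptide active against fungi and some bacteria. It read 5.17, 4.87 and 5.23 on the wild type arrays and 8.13, 8.71 and 6.09 on the mutant-labelled arrays. No mutant-labelled array reached down to the wild type values, but within the mutant label replicates 1 and 2 stood far above replicate 3. Relative to the wild type mean the 3 mutant-labelled arrays were 8.20-fold, 12.3-fold and 1.998-fold higher. The group means were 5.09 ± 0.19 and 7.64 ± 1.37 (SD, n = 3). Their difference of 2.55 (SE 0.60, 95% interval 1.14 to 3.96) did not pass (limma adjusted p = 0.0833). Without mutant-labelled replicate 3 it was 3.33 and passed (adjusted p = 2.78e-03), and without any other single array it did not pass (0.0873 to 0.274). The wild type values lay close to the lower quartile of the arrays, so the size of this fold is uncertain as well.

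Drs read 7.35, 7.49 and 9.27 on the wild type arrays and 7.36, 9.496 and 8.003 on the mutant-labelled arrays. Wild type replicate 3 and mutant-labelled replicate 2 were the high arrays, and the groups overlapped over most of their range. The means were 8.04 ± 1.07 and 8.29 ± 1.10 (SD, n = 3), and the difference of 0.25 (SE 0.66, limma adjusted p = 0.934) had a 95% interval from -1.31 to 1.81. That interval spans from 0.402-fold to 3.50-fold, so 3 arrays a group could not show a Drs change of that size. The sign of the difference itself depended on the arrays, with -0.098 and -0.025 without wild type replicates 1 and 2, and -0.36 without mutant-labelled replicate 2.

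Def read 5.73, 5.46 and 5.92 on the wild type arrays and 5.94, 5.53 and 5.66 on the mutant-labelled arrays. No array stood apart and the groups overlapped. The difference was 0.0053 (SE 0.15, adjusted p = 0.995 by limma), and the 95% interval from -0.34 to 0.35 corresponds to folds between 0.789 and 1.28. A change of 1.5-fold in array signal in either direction lies outside that interval. Def lay below the median of every array (6.46 to 6.56), where folds are compressed by background. The limit on a change in Def transcript is therefore uncertain.

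Counted together, 1 of the 5 measured genes was called higher and 0 lower by limma. Before adjustment 3 were higher at p under 0.05 (Listericin, Mtk and DptB) and 0 lower, where 10.5% of all genes were higher at that p and 6.31% lower. The groups did not overlap for the same 3 genes, all higher on the mutant-labelled arrays, as was the case for 14.5% of all genes. The median difference of the 5 was 0.42, beside 0.022 over all genes. The count of calls was 3 without mutant-labelled replicate 3, when 1.54% of all genes were called higher, and 1 with any other single array left out.

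**Figure D2:**
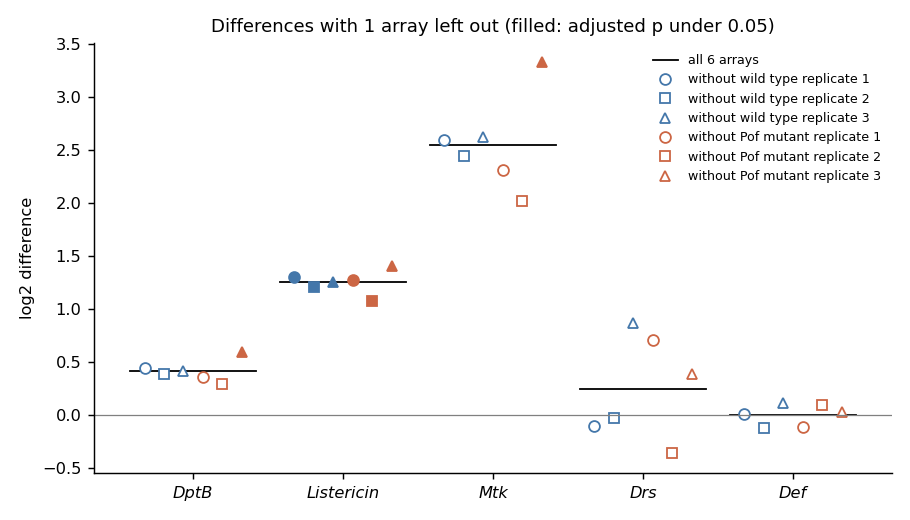
Log2 difference of each gene (y axis) with all 6 arrays (black line) and with each single array left out (symbols). Filled symbols passed an adjusted p of 0.05. Listericin stays between 1.08 and 1.41 and passes each time, Mtk and DptB pass only without mutant-labelled replicate 3, and Drs crosses 0.

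The spread between replicate arrays was the feature that set Mtk and Drs apart from most genes. Among 11982 genes, Mtk had the largest SD over the 3 mutant-labelled arrays (1.37) and Drs the next largest (1.10). The next gene in that order was the cuticle gene TwdlM at 1.00. On the wild type arrays Drs had an SD of 1.07, exceeded by 1.46% of genes, whereas Mtk had 0.19, exceeded by 15.6%. Listericin and DptB were also uneven under the mutant label, with SDs of 0.33 and 0.32 that 3.99% and 4.52% of genes exceeded. Their wild type SDs were small, at 0.09 and 0.05, exceeded by 52.4% and 80.7% of genes. In wild type, Mtk and Listericin lay near the lower quartile of the arrays, where differences between arrays are compressed too. The part of level in the contrast of their SDs between groups was not tested. Def had similar SDs of 0.23 and 0.21 in the wild type and mutant-labelled groups. These ranks, and the pairwise differences that follow, describe the 6 arrays and were not tested. The genes were listed with earlier results of these data known, so their high places are not independent of that choice.

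**Figure D3:**
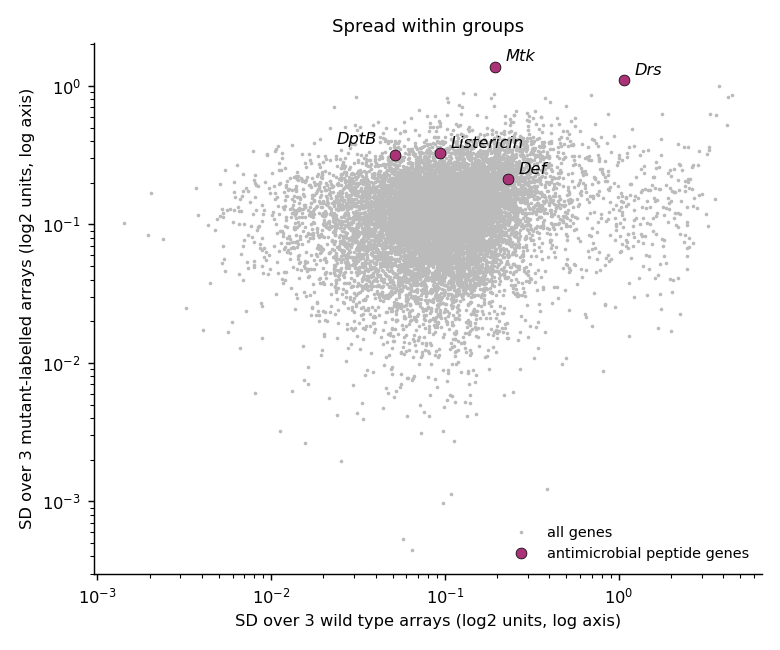
SD over the 3 wild type arrays (x axis) against SD over the 3 mutant-labelled arrays (y axis) for all 11982 genes, both in log2 units on log axes. Mtk lies at the top of the plot with a wild type SD of 0.19, and Drs has a high SD in both groups.

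Taken pair by pair, an antimicrobial peptide gene gave the largest difference of all genes in each comparison between mutant-labelled arrays. Drs differed 4.41-fold between replicates 1 and 2, with 0 genes differing more. Mtk differed 4.10-fold between replicates 1 and 3 and 6.14-fold between replicates 2 and 3, again with 0 genes differing more. The number of genes over 2-fold apart in these comparisons was only 27, 15 and 39.

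Drs also stood out between the closest pair of wild type arrays. Only 3 genes differed by over 2-fold between wild type replicates 2 and 3 (Pearson r = 0.998). Drs was among these, 3.44-fold higher on replicate 3, with 1 gene (CG6271) differing more. Mtk differed by 1.29-fold and Def by 1.38-fold between them, exceeded by 104 and 41 genes, and Listericin and DptB by 1.06-fold and 1.04-fold. In the pairs with wild type replicate 1, over 2-fold differences were more frequent (308 and 327 genes). There Drs differed 1.11-fold from replicate 2 and 3.80-fold from replicate 3, exceeded by 5638 and 167 genes.

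The arrays on which these genes stood high were not the same for every gene. Mtk, Listericin and DptB were each highest on mutant-labelled replicate 2 and, within that group, lowest on replicate 3. Drs was also highest on mutant-labelled replicate 2, but its lowest mutant-labelled array was replicate 1, where Mtk was 8.20-fold above the wild type mean. On wild type replicate 3, Drs stood at 3.62-fold of the mean of wild type replicates 1 and 2, while Mtk stood at 1.16-fold, Listericin at 0.995-fold and DptB at 1.002-fold of theirs.

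Mutant-labelled replicates 2 and 3 also stood apart in control probe sets. The 3 probe sets for small-subunit ribosomal RNA averaged 10.9 on replicate 2 and 6.60 on replicate 3, against 7.23 to 7.95 on the other arrays. The mean 3' minus 5' difference of the actin, GAPDH and eIF-4a controls, a sign of RNA degradation or short labelling products, was 2.03 on replicate 2 and 1.20 on replicate 3, against 1.28 to 1.48. The 7 probe sets for spiked bacterial transcripts averaged 9.63 on replicate 2 and 9.05 on replicate 3, against 9.24 to 9.38. The part of these features in the spread of Mtk, Listericin and DptB was not tested. Without mutant-labelled replicate 2, Listericin differed by 1.08 and still passed (limma adjusted p = 9.86e-03), Mtk by 2.02 (adjusted p = 0.170) and DptB by 0.29 (0.447). Wild type replicate 1, which correlated less well with the other wild type arrays (r = 0.980 and 0.979), had no extreme value of any of the 5 genes apart from the highest wild type readings of Listericin and DptB and the lowest of Drs. Without it Listericin differed by 1.30 (adjusted p = 6.74e-03), and without it and mutant-labelled replicate 2 together by 1.13 (8.61e-04).

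**Figure D4:**
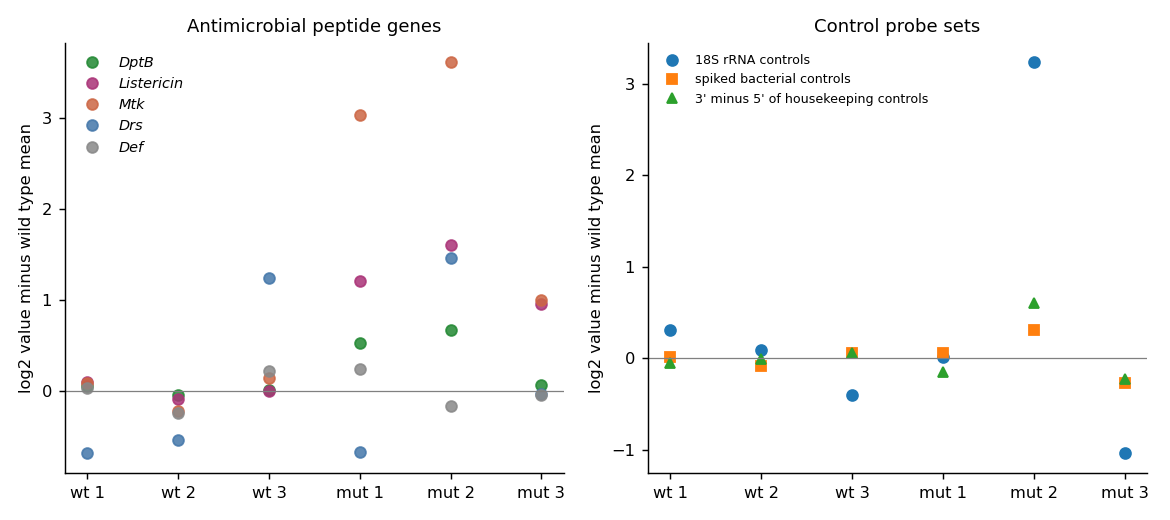
Values on each array as a difference from the wild type mean (y axis, log2), for the 5 antimicrobial peptide genes (left) and for 3 kinds of control probe sets (right); wt and mut on the x axis are the wild type and mutant-labelled replicates. Mutant-labelled replicate 2 is highest in Mtk, Listericin, DptB and Drs and in every kind of control.

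Other antimicrobial peptide genes gave no call. Of 17 further genes, 10 could be measured, and 0 were called in either direction by limma, while before adjustment 1 was higher and 0 were lower at p under 0.05 (below, this is the unadjusted count). That 1 was AttD, an attacin gene on 3R whose product lacks a secretion signal. It read 4.64, 4.46 and 4.499 in wild type and 5.199, 5.37 and 4.62 under the mutant label. Mutant-labelled replicate 3 lay within the wild type range, and replicates 1 and 2 stood at 1.59-fold and 1.79-fold of the wild type mean. The difference of 0.53 (SE 0.18) did not pass (adjusted p = 0.248), and the groups overlapped. The cecropin gene CecB differed by -0.022 and the Imd-responsive gene edin by 0.085. The 6 Drsl genes, which encode drosomycin-like peptides, differed by 0.038 to 0.15. None of them ranged over more than 0.36 within a group, while Drs itself ranged over 1.93 in wild type and 2.14 under the mutant label. Group means of Drsl2, Drsl3 and Drsl6 were 4.18 to 4.71, under the arrays' lower quartiles (5.11 to 5.24). Those of Drsl1 and Drsl5 were 5.60 to 5.77, under the medians (6.46 to 6.56). Background compresses differences of such dim genes, so their narrow ranges and missing calls say little. Among the 6 only Drsl4, at 7.16 and 7.24, was above the medians, with ranges of 0.25 in wild type and 0.36 under the mutant label. The median difference of the 10 was 0.075.

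The Bomanin genes, which encode short immune peptides induced through Toll, included falls and no rise. Of 8 measured, 0 rose and 3 fell, where 1.44% of all genes fell, and the unadjusted count was 1 higher and 3 lower. BomS4 differed by -2.13 and BomS6 by -2.21 (limma adjusted p = 1.63e-03 and 0.0118), and BomT3 by -0.57 (0.0326). BomS2 differed by 0.36 without passing (adjusted p = 0.340). On mutant-labelled replicate 2, where Drs was highest, BomS4 read 6.02 and BomS6 8.21, below the lowest wild type values of 8.15 and 9.97. On the same array BomS2 read 4.52 and BomS5 5.87, above the highest wild type values of 4.33 and 5.47.

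**Figure D5:**
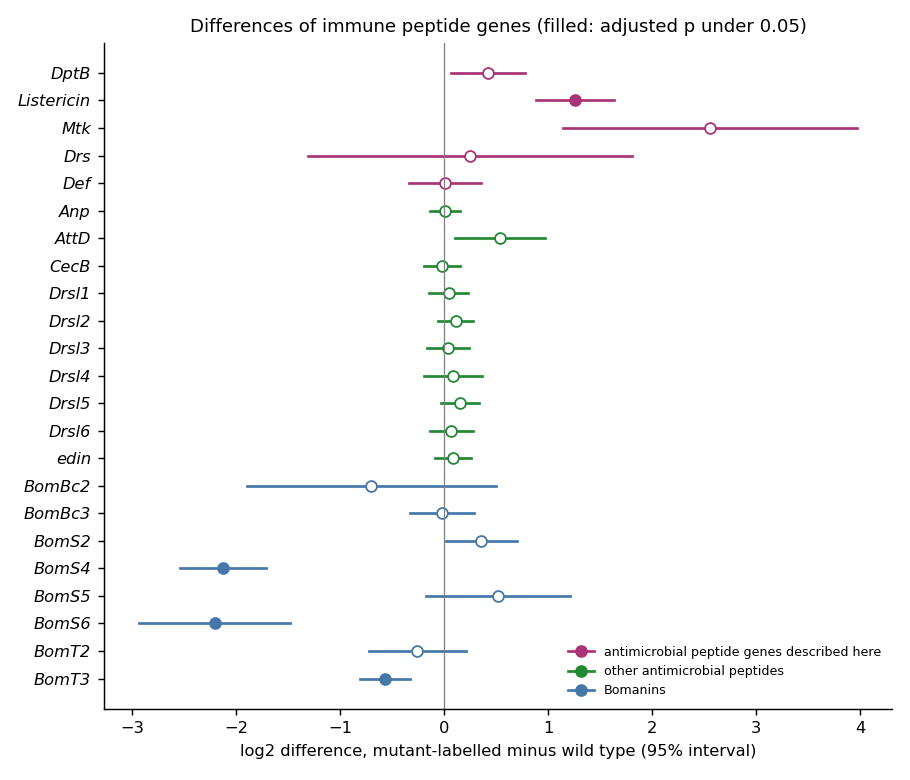
Log2 difference, mutant-labelled minus wild type, with its 95% interval (x axis) for the 5 antimicrobial peptide genes, 10 further antimicrobial peptide genes and 8 Bomanin genes. Filled points passed an adjusted p of 0.05: Listericin to the right of 0, and BomS4, BomS6 and BomT3 to the left.

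Genes that act upstream gave 0 calls on their brightest probe sets. Of 9 measured recognition genes, 0 passed by limma, and the unadjusted count was 0 higher and 3 lower. The 3 were PGRP-LA (-0.53, adjusted p = 0.0944), the amidase gene PGRP-SC2, whose product breaks down peptidoglycan (-0.63, 0.103), and the glucan receptor gene GNBP3 (-0.58, 0.120). PGRP-LE, the receptor linked to Listericin, differed by 0.12 (adjusted p = 0.723). Of 14 Imd signalling genes, 0 passed by limma, and the unadjusted count was 2 higher and 3 lower. The gene akirin, whose product is a nuclear cofactor of Relish, differed by -0.49 (adjusted p = 0.106) and dnr1, an inhibitor of Dredd, by -0.47 (0.124). The caspase gene Dredd differed by 0.26 (0.166), and Rel, the gene of the NF-kappaB factor Relish itself, by 0.058 (0.906).

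Of 13 Toll signalling genes, 0 passed by limma and the unadjusted count was 0, with differences from -0.058 to 0.091. The NF-kappaB gene Dif differed by -0.017 and the inhibitor gene cact by 0.091. A dimmer cact probe set differed by -0.40, with every mutant-labelled array below every wild type array, and did not pass (adjusted p = 0.122). The probe sets of the receptor gene Tl disagreed too: the brightest differed by -0.012 (adjusted p = 0.980), and a dimmer one fell by 0.59 (adjusted p = 0.0349, limma). Of 8 JAK/STAT and Turandot stress genes, 0 passed by limma and the unadjusted count was 0, and Stat92E differed by 0.081. Another 6 listed genes, hop and Socs36E among them, were not measured. The measured Turandot genes, upd1 and upd2 lay below the median of every array, so this count says little about the pathway. Of 4 other regulators, 0 passed by limma and the unadjusted count was 1 lower, the GATA factor gene srp (-0.51, adjusted p = 0.364), which is also counted below as a hemocyte marker. The lysozyme genes had 0 calls by limma among 3 measured and an unadjusted count of 0.

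RNA came from whole larvae, so fewer cells of a type and less RNA per cell cannot be told apart. Of 9 measured fat body markers 0 were called by limma (unadjusted count 2 higher and 1 lower), and their mean level was 9.72 to 9.77 on the wild type arrays and 9.79 to 9.85 on the mutant-labelled arrays. Lsd-1, the gene of a perilipin that coats lipid droplets, had the smallest p and differed by -0.50 (adjusted p = 0.0538), and the lipoprotein gene apolpp differed by 0.40 (adjusted p = 0.0714). Of 11 hemocyte markers 0 were called by limma (unadjusted count 2 higher and 1 lower), with means of 7.27 to 7.29 and 7.31 to 7.33, and NimC1 differed by 0.39 (0.0794). Of 11 midgut markers 2 rose and 0 fell, the protease genes betaTry by 1.03 and Jon99Ci by 0.98 (limma adjusted p = 0.0214 and 0.0171), where 2.65% of all genes rose. The unadjusted count of the midgut list was 2 higher and 0 lower. The midgut list had means of 10.98 to 11.27 and 11.16 to 11.33. Of the 4 trachea markers 0 were called by limma (unadjusted count 0 higher and 1 lower), with means of 9.70 to 10.29 and 9.45 to 9.84. The part of these tissues in the Listericin rise was not tested.

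Of 12 cuticle markers 0 rose and 1 fell, where 1.44% of all genes fell, with means of 8.12 to 9.55 in wild type and 8.06 to 8.33 under the mutant label. The unadjusted count of the cuticle list was 0 higher and 3 lower, where 6.31% of all genes were lower. The 3 nervous system and 4 muscle markers had 0 calls by limma and an unadjusted count of 0. The nervous system mean was 7.59 on mutant-labelled replicate 2, against 8.34 to 8.47 on every other array. Its markers elav (8.06) and nSyb (7.41) were lowest there, but brp read 7.31 there and 7.30 on mutant-labelled replicate 3. Mtk, Listericin, DptB and Drs were highest on mutant-labelled replicate 2, and a link to the nervous system markers was not tested. Muscle means were 12.42 to 12.51 in wild type and 12.43 to 12.54 under the mutant label. Wild type replicate 1 held the highest cuticle mean.

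Genes beside Mtk, Listericin, DptB and Drs gave no call. The nearest measured genes on either side of Mtk were Stacl and CG34188, which differed by 0.17 and 0.035. Those beside Listericin were CG13215 and CG13226, at -0.097 and -0.63 (limma adjusted p = 0.932 and 0.691). Beside DptB they were CG43069 and CG43109, at 0.12 and -0.0039, and beside Drs kst and Ythdc1, at 0.090 and -0.28. Of these 8 neighbours 0 were called by limma, where 4.09% of all genes were called in either direction, so 0 of 8 says little.

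The mean profile of the 5 genes, each centred on its own mean, was set against 322 genes outside all lists that varied at least as much over the 6 arrays. CG4752 was most like it (Pearson r = 0.913 over 6 arrays), followed by CG14275 (0.903), Hpd (0.893), CG17191 (0.892) and CG34166 (0.892). Hpd encodes an enzyme of tyrosine breakdown. Like the profile, each of these was higher on all mutant-labelled arrays than on any wild type array and highest on mutant-labelled replicate 2. They were picked for likeness to the profile, so this shared shape is no separate result. The profile is an unscaled mean, so Mtk and Drs, with the widest ranges, weigh most in it. Its r was 0.95 with Mtk, 0.93 with DptB and 0.91 with Listericin, but 0.57 with Drs and 0.086 with Def. A gene like the profile is therefore not like each of the 5.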

How the data were processed

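Each array's file column holds log2 expression of probe sets as deposited by the authors. The submitters' processing notes name RMA, without version or settings, and no detection calls were used. RMA usually equalises the distributions of the arrays and compresses folds of dim probe sets. After leaving out 183 control probe sets, the remaining 18769 entered 1 fit of both groups with no covariate (lmFit and eBayes, limma 3.58.1 in R 4.3.3), with Benjamini-Hochberg adjustment over all of them. A gene was its brightest single-gene probe set by the platform annotation, with symbols and gene order updated through gene IDs in a RefSeq table (Release 6 plus ISO1 MT, names and order only). SD is over 3 arrays, SE is limma's, and n limits precision. The procedure was tested on simulated data with the same SD in both groups, unlike Mtk and Listericin here. That test does not show how the fit performs for such genes.

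The 10 genes, the 8 pathway lists and the 7 marker lists were chosen with earlier results of these data known. Named genes were the 10, Pof, the genes with the smallest p in each list (up to 4), and the 5 genes most like the mean profile; CG6271, Acbp6, TwdlM, the neighbours and other list members were named after their values were seen, and lists without a call are given with fewer names for length. Alternatives were 2 further normalizations, a filter to the brighter 60% of probe sets, trended robust variances, array weights, a replicate block, left-out arrays, averaged probe sets, no _s, _x or _a probe sets, and other thresholds.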

Additional observations from a re-analysis of the deposited data

How the results depend on the processing

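The count of called genes stayed at 1 in 14 of 17 alternatives. It was 1 to 3 with 1 array left out, 2 at an adjusted p under 0.10, and 0 with the dimmer probe sets left out, where Listericin and Def were removed by the filter and 3 genes were tested. The filter used the mean over all 6 arrays, so Mtk was kept through its mutant-labelled mean of 7.64. Its wild type mean of 5.09 lay below those of Listericin (5.203) and Def (5.706). The median difference of the 5 genes was 0.29 to 0.87 with 1 array left out, the highest without wild type replicate 3, beside 0.42 with all arrays. Listericin passed in all 14 alternatives that kept it (difference 1.08 to 1.41, adjusted p 8.61e-04 to 0.0464). Mtk stayed higher in all 15 (1.92 to 3.33) and passed in 1, with adjusted p up to 0.278, and DptB stayed higher in all 15 (0.28 to 0.60) and passed in 1. Averaged probe sets, no _s, _x or _a probe sets, the filter, the replicate block and trended robust variances left each kept difference as it was. This was fixed in advance, because each gene had 1 probe set without suffix and the groups were equal in size. Only the adjusted p could move in those settings. Drs changed sign without single arrays (range -0.36 to 0.87, -0.098 and -0.025 without wild type replicates 1 and 2) and gave -0.70 without wild type replicate 1 and mutant-labelled replicate 2 (adjusted p = 0.503). Def changed sign with cyclic loess (-0.026), a further quantile normalization (-0.021) and without mutant-labelled replicate 1 or wild type replicate 2 (-0.11 and -0.12; leave-one-out range -0.12 to 0.11), never passing. The cause of these changes was not tested. Arrays with the same replicate number deviated together with r = 0.18, 0.13 and 0.025. Wild type replicate 3 correlated best with mutant-labelled replicate 2 (0.15), and all other pairs with different numbers gave -0.19 to -0.0064. The numbers were not taken to pair the samples. With the replicate block 1 gene was called and the median difference was 0.42. Listericin then gave an adjusted p = 0.0201 and Mtk 0.0846 (limma).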

Other observations

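Besides Drs, the genes over 2-fold apart between the closely matched wild type replicates 2 and 3 were CG6271 and Acbp6, an acyl-CoA binding protein gene, each higher on replicate 3. CG6271 read 5.597 and 7.597 on those arrays and 5.49 to 5.62 under the mutant label. Acbp6 read 8.26 and 9.54 there and 9.14 to 9.74 under the mutant label, a range that holds its value on wild type replicate 3.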
